A study of Mus musculus with 24 samples.

Results

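Retinas of rd10 mice that ate a drug diet were set against retinas of rd10 mice on the same chow without the drugs. The comparison takes in all 16 light-exposed rd10 retinas of the 24 retinas in the series, chosen by their diet labels. It runs over all nuclear genes with raw counts. The rd10 TMB group (n = 8) ate chow with tamsulosin, metoprolol and bromocriptine, given from postnatal day 28. The rd10 vehicle group (n = 8) ate the base chow. All 16 mice carried the rd10 point mutation of Pde6b on a C57BL/6J background. All were reared in the dark and moved to cyclic light on day 29. Each mouse also had an electroretinogram with light flashes under anaesthesia on day 36, and retinas were collected on day 37 by the methods (the labels end at day 36). Each library is called a retina here, although the sources do not say whether it held 1 retina or both of a mouse. Litters had been split at random between the chows at weaning. Each diet group held 4 females and 4 males. The other retinas enter below only as levels, apart from 1 alternative fit with all 4 groups. They are 4 rd10 DR retinas, kept in the dark until collection on day 28 by the methods (the labels say day 30). The 4 WT retinas are from C57BL/6J mice and were collected on day 37. The design has no WT group on the drug diet and no rd10 group on a single drug. The values therefore belong to the 3 drugs together in the mutant retina.

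Rods make up most of the cells of the mouse retina. Pde6b is a catalytic subunit of the phosphodiesterase that lowers cGMP in rods after light, and in rd10 mice its defect ends in the death of the rods and later of the cones. Dark rearing slows that loss, and light speeds it up again. Tamsulosin blocks alpha-1 adrenergic receptors, metoprolol blocks the beta-1 adrenergic receptor, and bromocriptine activates D2-type dopamine receptors. These receptors act through the second messengers calcium and cAMP. In whole-tissue RNA, fewer cells of a type and less RNA per cell cannot be told apart.

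Libraries held 59309641 to 86471014 nuclear counts in rd10 TMB retinas and 56799680 to 78770995 in rd10 vehicle retinas. Mitochondrially encoded genes made up 2.53% to 3.34% of all counts in rd10 TMB retinas and 2.73% to 3.39% in rd10 vehicle retinas. All 27 rod genes of the marker list and 14 of 15 cone genes were in the table and detected, which fits the tissue label. Genes of neighbouring tissues varied strongly between retinas of both diets. The summed level of 11 pigment epithelium and melanocyte genes was 276, 334 and 1500 CPM in rd10 TMB retinas (lowest, median and highest retina). In rd10 vehicle retinas it was 189, 397 and 1340 CPM (CPM are counts scaled to library size). In the test of the diets given below, none of the 11 passed. Of them, 7 had a positive and 4 a negative log2 fold change (median 0.33). Rpe65, Rgr, Lrat and Ttr had 1.37, 1.32, 1.38 and 0.85 (adjusted p = 0.0753, 0.0621, 0.0958 and 0.134). The 2 lens crystallins analysed here, Crygb and Crygd, summed to 0.901, 16.7 and 2950 CPM in rd10 TMB retinas and 7, 19.6 and 167 CPM in rd10 vehicle retinas. Haemoglobin and other red cell genes (5 in all) summed to 9.18, 30.6 and 100 CPM in rd10 TMB retinas and 11.8, 17 and 30.8 CPM in rd10 vehicle retinas. No gene of these lists was at 0 in all 16 retinas. The highest pigment epithelium and melanocyte sums were those of rd10 TMB retinas 3, 4 and 2 and of rd10 vehicle retina 1. The sum does not follow pigment epithelium alone. In any rd10 vehicle retina Rpe65, Rgr, Lrat and Ttr reached at most 20.4, 46.8, 7.52 and 173 CPM. Other members thus made up most of the 1340 CPM. The part of such RNA in the results below was not tested beyond leaving these retinas out.

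The mean level of the 27 rod genes set most retinas apart by diet, with some overlap. It was 8.74 to 9.62 log2 CPM in rd10 TMB retinas and 7.591 to 8.998 in rd10 vehicle retinas. The lowest levels of all were those of rd10 vehicle retinas 5 (7.59) and 1 (7.87). In rd10 DR retinas the same mean was 9.93 to 10.07 log2 CPM and in WT retinas 10.57 to 10.81. Rod RNA in the rd10 TMB retinas thus lay above most rd10 vehicle retinas and below every rd10 DR and WT retina.

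Of 20251 genes tested with the quasi-likelihood test of edgeR, 683 were higher (3.37% of the genes tested) and 469 were lower (2.32%) in rd10 TMB than in rd10 vehicle retinas at an adjusted p under 0.05. The rises were larger than the falls. The median log2 fold change was 0.43 among the higher genes and -0.18 among the lower ones, and 190 genes rose and 19 fell by at least 1.5-fold. All fold changes are relative to TMM scaling, which held the median of all genes at 0.00043. With library size as the only scaling the calls were 656 higher and 1041 lower, so that 38.7% of calls were rises in place of 59.3%.

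The number of calls hung on single retinas. Without rd10 vehicle retina 1 or 5, only 2 and 3 genes passed. Without rd10 TMB retina 5 or 4, 119 and 220 passed. The count was 372 without rd10 vehicle retina 8, 404 without rd10 TMB retina 6, 446 without rd10 vehicle retina 4, 575 without rd10 vehicle retina 6, 634 without rd10 TMB retina 2 and 652 without rd10 TMB retina 7.

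**Figure D1:**
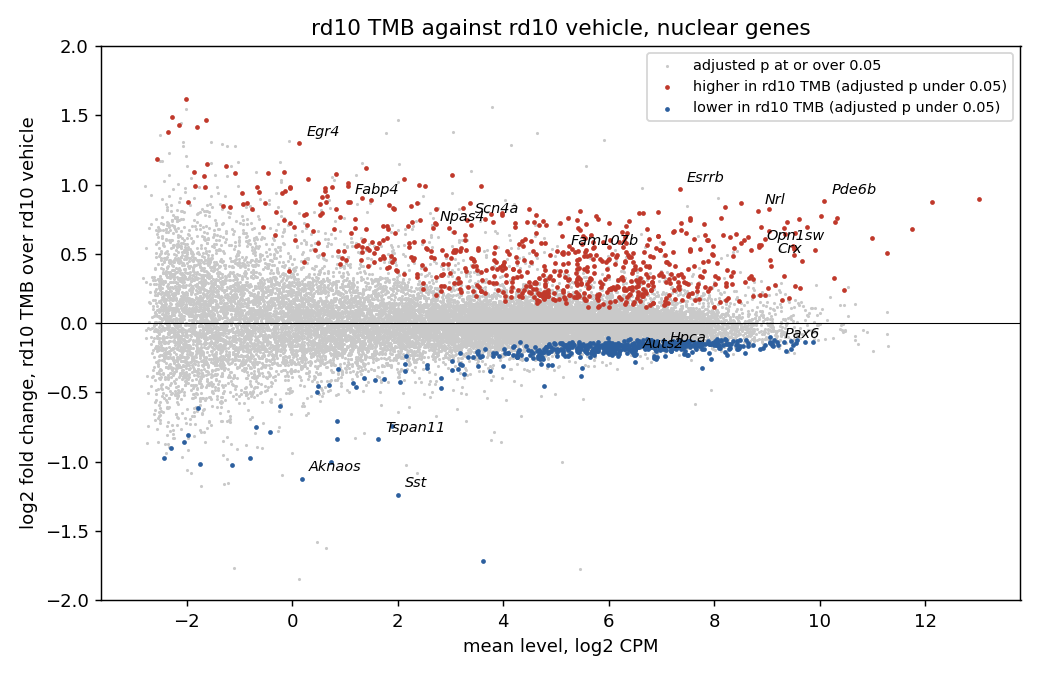
Log2 fold change (rd10 TMB over rd10 vehicle, vertical axis) against mean level (log2 CPM, horizontal axis) for 20251 genes. Red points are the 683 genes higher in rd10 TMB and blue points the 469 genes lower, 7 genes lie outside the axis limits, and the red points reach much farther from 0 than the blue ones at high levels.

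The titles of the mice carry the prefixes RD8, RD9 and RD10, which may mark a batch, though no source used here explains them. The rd10 TMB group held 3 retinas with RD9 and 5 with RD10, and the rd10 vehicle group 3 with RD9, 4 with RD10 and 1 with RD8. With the prefix as a covariate, 542 genes were higher and 297 lower. Within RD9 retinas alone no gene passed (3065 genes at an unadjusted p under 0.05), and within RD10 retinas alone 7 were higher and 5 lower. The median fold change of the 27 rod genes was 0.87 (log2) within RD9 and 0.64 within RD10, beside 0.69 over all 16 retinas, although none of them passed within either prefix.

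Genes of rod phototransduction and rod identity rose together. Of 27 listed genes, 25 were higher, none was lower, and the median log2 fold change was 0.69. The count hung on single retinas. It was 0 without rd10 vehicle retina 1 or 5, 1 and 3 without rd10 TMB retina 5 or 4, 4 and 5 without rd10 vehicle retina 8 or 4, 7 without rd10 TMB retina 6, 10 without rd10 TMB retina 1 or rd10 vehicle retina 6, and 16 without rd10 TMB retina 2. The median stayed between 0.62 and 0.75 in these fits, and 15 genes passed with the title prefix as a covariate.

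Pde6b, the mutated gene itself (chromosome 5, 108388391 to 108432397, GRCm38), had lowest, median and highest levels of 903, 1333 and 1893 CPM in rd10 TMB retinas and 357, 669 and 1158 CPM in rd10 vehicle retinas. The groups overlapped, with 5 rd10 TMB retinas above every rd10 vehicle retina. The log2 fold change was 0.88 (SE 0.216, adjusted p = 0.0302). Pde6b averaged 2221 ± 50.6 CPM in rd10 DR retinas and 3867 ± 272 CPM in WT retinas (SD, n = 4 each). The rd10 mutation changes a base and leaves the transcript in place, so this level counts the mutant message and does not check the genotype.

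The largest rise of the list was that of Esrrb, an orphan nuclear receptor that supports rod survival. It had 137, 183 and 294 CPM in rd10 TMB retinas and 45.7, 105 and 154 CPM in rd10 vehicle retinas, and 7 of 8 rd10 TMB retinas exceeded all rd10 vehicle retinas (log2 fold change 0.97, SE 0.218, adjusted p = 0.0258). Nrl, a leucine zipper factor without which rods do not form, had a log2 fold change of 0.81 (SE 0.224, adjusted p = 0.0428). Gucy2f, a guanylate cyclase that restores cGMP after light, had 84.3, 117 and 156 CPM in rd10 TMB retinas and 37.8, 63.5 and 92.7 CPM in rd10 vehicle retinas, and 7 of 8 rd10 TMB retinas exceeded all rd10 vehicle retinas (log2 fold change 0.80, SE 0.174, adjusted p = 0.0248). The receptor kinase Grk1 (0.69, adjusted p = 0.0245) and Rgs9, which speeds the shutoff of transducin (0.56, adjusted p = 0.0231), were also higher. The remaining members, Nr2e3 and Samd7, which repress cone genes in rods, had log2 fold changes of 0.63 and 0.55 (adjusted p = 0.0656 and 0.113).

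**Figure D2:**
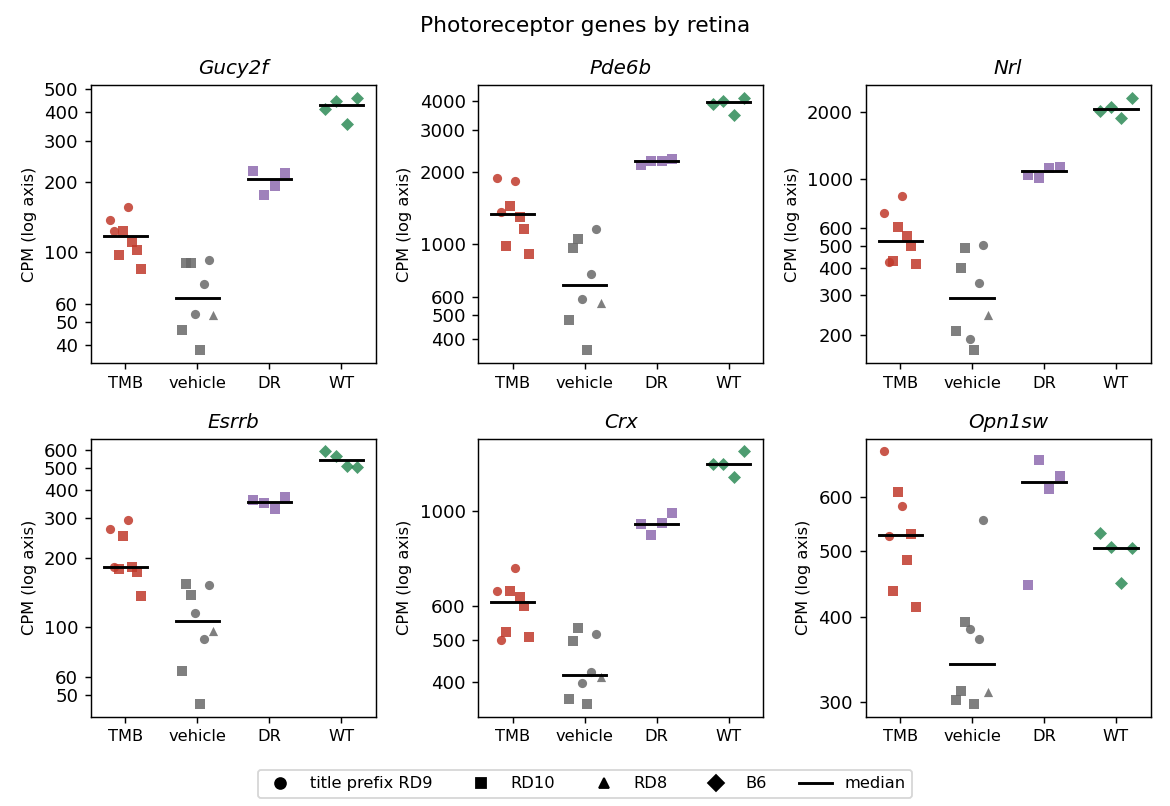
Level of 6 photoreceptor genes in each retina (CPM, log axis) for rd10 TMB, rd10 vehicle, rd10 DR and WT, with symbols for the title prefix and bars at the group medians. For Pde6b, rd10 TMB retinas run between 903 and 1893 CPM and rd10 vehicle retinas between 357 and 1158 CPM, and the medians of the rod genes in both groups stay below rd10 DR and WT.

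Most genes that rods and cones share were higher too. Of 27, 19 passed as higher and none lower (median log2 fold change 0.54), and none passed without rd10 vehicle retina 1 or 5 or rd10 TMB retina 5 (medians 0.48 to 0.49). Crx, the homeobox factor that drives photoreceptor genes, had 500, 616 and 736 CPM in rd10 TMB retinas and 355, 416 and 534 CPM in rd10 vehicle retinas. Of the rd10 vehicle retinas, 6 lay below the lowest rd10 TMB retina (log2 fold change 0.45, SE 0.0956, adjusted p = 0.0245). The potassium channel subunit Kcnv2 (0.76), the disc-forming Prom1 (0.61) and the ciliary protein Fam161a (0.61) were higher as well, at adjusted p = 0.0245, 0.0258 and 0.0249.

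Genes of the photoreceptor cilium, which carries the outer segment, were split. Of 31 tested, 15 were higher and none lower (median 0.22). Bbs9, which encodes a subunit of the Bardet-Biedl complex that moves cargo through cilia, had 65.6, 85.8 and 106 CPM in rd10 TMB retinas and 44.1, 59.3 and 74.4 CPM in rd10 vehicle retinas. Above every rd10 vehicle retina lay 7 of 8 rd10 TMB retinas (log2 fold change 0.55, SE 0.109, adjusted p = 0.0231). Its partner Ttc8 (0.30) and the small GTPase Arl13b (0.50) were also higher, at adjusted p = 0.0258 and 0.0263. Of 20 genes of the photoreceptor ribbon synapse, 8 were higher and none lower (median 0.28). Without rd10 vehicle retina 1 or 5 or rd10 TMB retina 5, the cilium calls were 0, 0 and 1 and no ribbon synapse gene passed (medians 0.20 to 0.21 and 0.24 to 0.25). Leaving out rd10 TMB retina 1, 2, 4 or 6 or rd10 vehicle retina 4, 6 or 8 gave 2 to 7 cilium and 1 to 5 ribbon synapse calls, and without rd10 TMB retina 7 the cilium calls were 8. Among the 8 ribbon synapse genes were Egflam (pikachurin, which links photoreceptor to bipolar endings, 0.66, adjusted p = 0.0245), Wdr17 (0.67, adjusted p = 0.0263), the complexin Cplx4 (0.55, adjusted p = 0.0319) and the calcium-binding Cabp4 (0.60, adjusted p = 0.034).

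Cone genes mostly did not pass. Of 14 tested, 2 were higher and none lower, with a median log2 fold change of 0.05. None passed without rd10 vehicle retina 1 or 5. Besides the 2 higher genes, 1 was lower with library size alone, with DESeq2 and with all 4 groups in 1 fit. The short-wave opsin Opn1sw had 414, 527 and 699 CPM in rd10 TMB retinas and 298, 341 and 555 CPM in rd10 vehicle retinas. Below the lowest rd10 TMB retina lay 7 of 8 rd10 vehicle retinas, and the exception was retina 7 with 555 CPM (log2 fold change 0.55, SE 0.124, adjusted p = 0.0258). Opn1sw averaged 596 ± 104 CPM in rd10 DR and 497 ± 34.6 CPM in WT retinas, so the rd10 TMB range covered both means. Thrb, the thyroid hormone receptor that steers cone opsin choice, was at 69.7, 71.7 and 80.0 CPM in rd10 TMB retinas and 54.9, 61.2 and 69.3 CPM in rd10 vehicle retinas. Its groups did not overlap (log2 fold change 0.24, SE 0.0472, adjusted p = 0.0231). Over all genes, every rd10 TMB retina lay above every rd10 vehicle retina for 24 genes (0.119% of those tested) and below for 29 (0.143%).

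**Figure D3:**
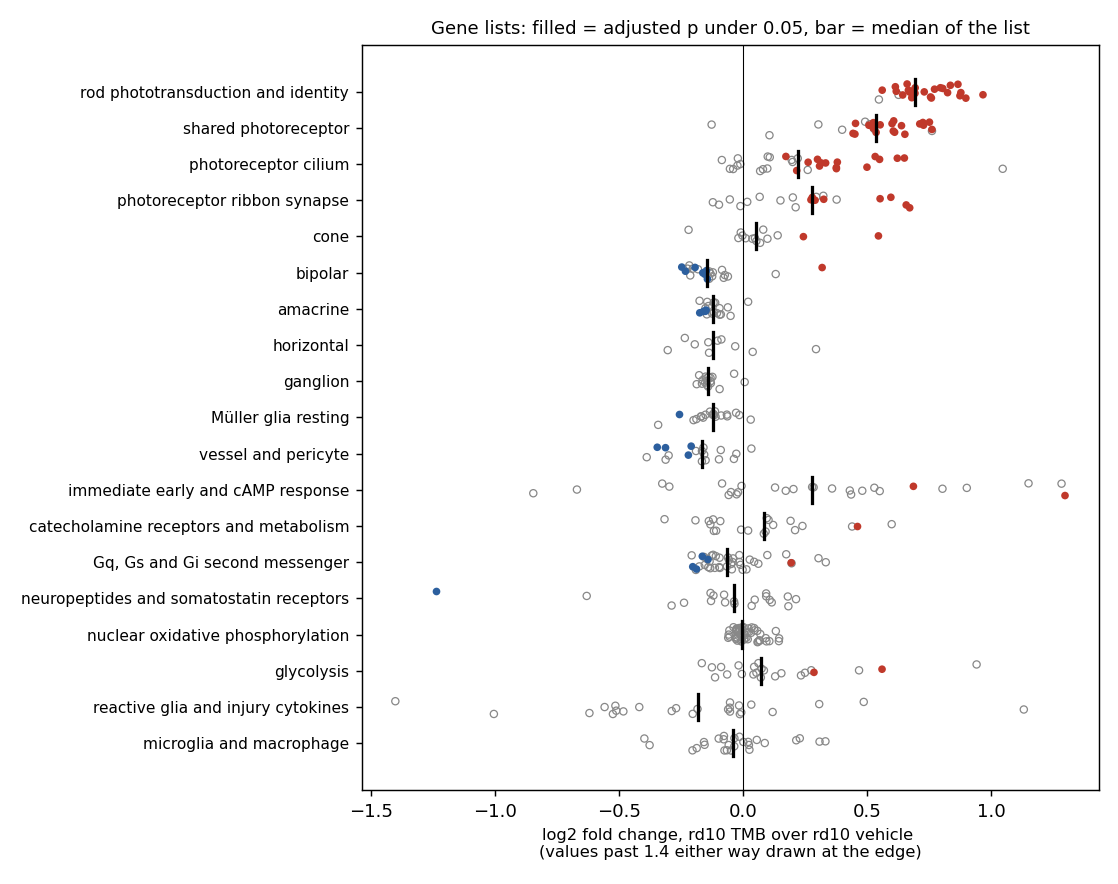
Log2 fold change (rd10 TMB over rd10 vehicle, horizontal axis) of the members of 19 gene lists, one circle per gene, filled where the adjusted p was under 0.05, with a bar at each list's median. The rod list sits to the right with a median of 0.69, the cone list near 0 with 0.05, and the bipolar, amacrine and vessel lists just left of 0.

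A minority of inner retina genes passed, nearly all of them as lower and by small amounts. Over all genes tested, 2.32% were lower and 3.37% higher. Of 23 bipolar genes, 7 were lower and 1 higher (median log2 fold change -0.14). Of the 23, 21 had a negative fold change and 17 an unadjusted p under 0.05. Pcp2 marks ON bipolar cells, and had 76.2, 81.9 and 88.0 CPM in rd10 TMB retinas against 86.2, 92.6 and 101 CPM in rd10 vehicle retinas (log2 fold change -0.19, SE 0.0399, adjusted p = 0.0243). Cabp5 (-0.23) and the homeobox gene Lhx4 (-0.15) were lower, at adjusted p = 0.025 and 0.0332. The member that rose, Lrit3 (0.32, adjusted p = 0.0394), is made by photoreceptors and organises the bipolar contact. Of 20 amacrine genes, 19 had a negative fold change and 13 an unadjusted p under 0.05, beside 4398 of all 20251 genes. Of the 20, 4 were lower and none higher (median -0.12). They were Pax6 (-0.16), the acetylcholine enzyme Chat (-0.15), Tfap2a (-0.15) and the GABA transporter Slc32a1 (-0.17), with adjusted p from 0.0299 to 0.0458. These folds were small enough to move with the scaling: with library size alone, 11 bipolar and 8 amacrine genes were lower. None of the bipolar, amacrine or vessel genes passed without rd10 vehicle retina 1 or 5 or rd10 TMB retina 5.

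No member passed in either direction among 10 horizontal and 18 ganglion cell genes, whose medians were -0.12 and -0.14. At an unadjusted p under 0.05 there were 5 and 13, and DESeq2 called 1 horizontal gene higher, 2 lower and 4 ganglion cell genes lower. With library size alone, 2 horizontal and 8 ganglion cell genes were lower, and without rd10 vehicle retina 2 the counts were 2 and 7. Without rd10 vehicle retina 7, 1 horizontal gene was higher and 1 lower, and 2 ganglion cell genes were lower. Of 20 genes of resting Müller glia, which support the neurons, only the water channel gene Aqp4 was lower (-0.26, adjusted p = 0.0376). Of 18 vessel and pericyte genes, 17 had a negative fold change and 9 an unadjusted p under 0.05. Of the 18, 4 were lower and none higher (median -0.16), beside 2.32% lower over all genes. They were the endothelial junction genes Cldn5 (-0.34, adjusted p = 0.0471), Cdh5 (-0.31, adjusted p = 0.0376) and Esam (-0.22, adjusted p = 0.033), and the VEGF receptor Flt1 (-0.21, adjusted p = 0.0446).

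The smallest p of all genes belonged to Sst, which encodes somatostatin, a peptide of amacrine cells. Sst (chromosome 16, 23889573 to 23890958) had 1.68, 2.39 and 3.02 CPM in rd10 TMB retinas and 3.55, 5.62 and 7.03 CPM in rd10 vehicle retinas. Every rd10 TMB retina lay below every rd10 vehicle retina. The log2 fold change was -1.24 (SE 0.146, adjusted p = 0.0016), a 2.36-fold lower level. Sst averaged 3.28 ± 0.684 CPM in rd10 DR retinas and 3.13 ± 0.339 CPM in WT retinas. It was the only gene of 20 peptides and somatostatin receptors to pass. Sst passed in all 16 fits without 1 retina, with log2 fold changes from -1.31 to -1.18, and had -1.22 within RD9 (adjusted p = 0.134) and -1.25 within RD10 retinas (adjusted p = 0.0308).

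The start of the Sst gene carries a textbook cAMP response element, which is bound by CREB. It is shown with the starts of Egr4 and Npas4, the activity-dependent genes that moved the other way, because all 3 hold the core letters TGACG of that element. Sequences are from RefSeq (GRCm38.p6), run 5′ to 3′ along the gene up to the base before the transcript start, and capitals mark TGACG on either strand, overlapping where the full TGACGTCA occurs.
Sst, chr16:23890845-23890964, minus strand: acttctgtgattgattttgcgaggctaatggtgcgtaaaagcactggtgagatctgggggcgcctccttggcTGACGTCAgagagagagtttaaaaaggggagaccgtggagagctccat
Egr4, chr6:85513590-85513709, minus strand: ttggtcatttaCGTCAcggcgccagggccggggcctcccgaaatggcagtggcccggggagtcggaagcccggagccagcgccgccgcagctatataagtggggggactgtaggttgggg
Npas4, chr19:4989972-4990171, minus strand: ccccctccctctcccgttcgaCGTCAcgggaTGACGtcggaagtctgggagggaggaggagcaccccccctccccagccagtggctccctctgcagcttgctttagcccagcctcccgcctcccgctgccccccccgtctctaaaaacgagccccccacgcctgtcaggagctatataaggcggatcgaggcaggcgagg
The full TGACGTCA begins 48 bases before the RefSeq start of Sst and is absent from the other 2 windows. It occurs in 588 of 32851 promoter windows of 300 bases (1.79%), and TGACG in 20.8%. The windows shown are shorter, with 120 bases for Sst and Egr4 and 200 for Npas4. Within 120 bases Npas4 would show no TGACG, since its sites begin 179 and 169 bases before the start. For Sst and Npas4, GENCODE M21, the source of the gene positions given here, starts the gene farther upstream than RefSeq, so the element of Sst and the whole Npas4 window lie inside those GENCODE genes. The letters are a description of these windows and not a measure of binding.

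Egr4, a zinc finger factor induced by neuronal activity, was the largest rise among immediate early genes. It had 0.700, 1.41 and 2.03 CPM in rd10 TMB retinas and 0.286, 0.645 and 0.776 CPM in rd10 vehicle retinas, with 7 of 8 rd10 TMB retinas above all rd10 vehicle retinas. The log2 fold change was 1.30 (SE 0.225, adjusted p = 0.0231). Egr4 had 1.69 within RD10 and 0.74 within RD9 retinas (adjusted p = 0.0719 and 0.307). Npas4, an activity-dependent factor of neurons, had 5.36, 7.12 and 10.99 CPM in rd10 TMB retinas and 3.59, 4.35 and 6.31 CPM in rd10 vehicle retinas (log2 fold change 0.69, SE 0.152, adjusted p = 0.0249). Within RD10 and RD9 retinas Npas4 had 0.84 and 0.62 (adjusted p = 0.0413 and 0.289). The groups of Npas4 overlapped, and 6 of 8 rd10 vehicle retinas lay below the lowest rd10 TMB retina. These were the only calls among 27 immediate early and cAMP-response genes, whose median was 0.28. Fos had 46.2, 87.8 and 297 CPM in rd10 TMB retinas and 39.97, 59.3 and 323 CPM in rd10 vehicle retinas. Its log2 fold change was 0.48 (SE 0.45, adjusted p = 0.594). The rd10 vehicle maximum was that of retina 4, and the next retina had 79.5 CPM. The summed level of the immediate early list was highest in the RD9 females. It was 2240 and 2160 CPM in rd10 TMB retinas 1 and 2 and 2110 CPM in rd10 vehicle retina 4. The medians of this sum were 951 CPM in rd10 TMB and 793 CPM in rd10 vehicle retinas. The fold change of Fos was 1.15 without rd10 vehicle retina 4 (adjusted p = 0.0602), 0.17 without rd10 TMB retina 1 and 0.28 without rd10 TMB retina 2, and DESeq2 gave 1.10 with an adjusted p of 0.0222.

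Few genes of the drugs' own signalling passed at an adjusted p under 0.05. Over all genes tested, 3.37% were higher and 2.32% lower. A single call among 21 or 17 genes is near these shares and is no result about the list. Of 21 catecholamine receptor and metabolism genes, 1 was higher and none lower. It was Drd4, the dopamine receptor of photoreceptors, with 51.1, 61.5 and 81.1 CPM in rd10 TMB retinas and 37.5, 44.9 and 65.6 CPM in rd10 vehicle retinas (log2 fold change 0.46, SE 0.116, adjusted p = 0.033). Drd4 averaged 148 ± 26.8 CPM in rd10 DR and 131 ± 4.59 CPM in WT retinas. The receptors Adrb1 and Drd2 had log2 fold changes of 0.21 and -0.13 (adjusted p = 0.114 and 0.149). Of 41 second messenger genes, 31 had a negative fold change. Of the 41, 1 was higher and 4 were lower (median -0.06), the lower calls at a share above 2.32%. Among them the cyclases Adcy5 (-0.16) and Adcy3 (-0.20) and the Go subunit Gnao1 (-0.14) were lower, and the cAMP phosphodiesterase Pde8a (0.19) was higher, with adjusted p from 0.0245 to 0.0332. Of 17 calcium channel and pump genes, only the calcium pump Atp2b2 passed, and it was lower (-0.15, adjusted p = 0.0343). At an unadjusted p under 0.05 there were 5 of 21 catecholamine, 22 of 41 second messenger and 8 of 17 calcium genes, beside 4398 of all 20251.

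Among the genes with the smallest p outside these lists, Fam107b and Scn4a were higher. Fam107b had 31.3, 40.2 and 46.1 CPM in rd10 TMB retinas and 24.9, 27.8 and 32.3 CPM in rd10 vehicle retinas (log2 fold change 0.51, SE 0.0722, adjusted p = 0.0101). It passed in all 16 fits without 1 retina. The sodium channel gene Scn4a had 8.98, 12.3 and 14.2 CPM in rd10 TMB retinas and 5.46, 6.90 and 9.27 CPM in rd10 vehicle retinas (log2 fold change 0.74, SE 0.111, adjusted p = 0.0161). For both, 7 of 8 rd10 TMB retinas were above all rd10 vehicle retinas. Sap30, a subunit of the Sin3 deacetylase complex, did not overlap between the diets (0.53, adjusted p = 0.0206). Sntb2 of the dystrophin complex (0.57), the RNA granule gene Tdrd7 (0.75) and the sulfate transporter Slc26a2 (0.49) each had an adjusted p of 0.0231. Every gene of this paragraph averaged higher in rd10 DR than in rd10 TMB retinas and highest in WT retinas. Means in rd10 DR and WT retinas were 17.6 and 28.3 CPM for Scn4a and 341 and 505 CPM for Tdrd7.

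The largest rises by fold were those of genes at low to moderate level. After Egr4 came Tcp11 (1.07, adjusted p = 0.0249), the atypical MAP kinase Mapk15 (1.04, adjusted p = 0.0231), the anion transporters Slc17a4 (0.99, adjusted p = 0.0279) and Slc17a3 (0.99, adjusted p = 0.0352), and Glb1l3 (0.97, adjusted p = 0.0472). Nipal1 (0.90), the secreted factor Prok1 (0.89) and the fatty acid binding Fabp4 (0.88) followed, with adjusted p = 0.0319, 0.0321 and 0.0231. Glb1l3 had 1.07, 1.93 and 3.15 CPM in rd10 TMB retinas and 0.428, 0.845 and 1.69 CPM in rd10 vehicle retinas. Both groups lay far below the 19.6 ± 2.58 CPM of WT retinas.

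Next to Sst, the clearest fall was that of the tetraspanin Tspan11. It had 1.19, 2.22 and 2.75 CPM in rd10 TMB retinas and 3.21, 3.72 and 4.45 CPM in rd10 vehicle retinas, with no overlap (log2 fold change -0.84, SE 0.131, adjusted p = 0.0206). Its mean was 1.27 ± 0.449 CPM in rd10 DR and 0.584 ± 0.244 CPM in WT retinas. Aknaos (-1.12, adjusted p = 0.0231) is an antisense RNA of Akna, and these unstranded libraries cannot tell the pair apart. Sh2d6 (-1.004, adjusted p = 0.0245), the serpin Serpinb8 (-0.74, adjusted p = 0.0231), the serotonin receptor Htr3a (-0.47, adjusted p = 0.0245), the microglial Abi3 (-0.46, adjusted p = 0.0245), Aqp2 (-0.45, adjusted p = 0.0451) and the proton pump subunit Tcirg1 (-0.45, adjusted p = 0.0231) were lower. So were Arhgap22 (-0.43, adjusted p = 0.0258), Glis1 (-0.43, adjusted p = 0.0242) and Rflnb (-0.40, adjusted p = 0.0428).

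Of the lower genes with the smallest p, 4 fell by small amounts with small standard errors. Auts2 had 74.1, 80.3 and 88.1 CPM in rd10 TMB retinas and 90.2, 95.0 and 99.5 CPM in rd10 vehicle retinas (log2 fold change -0.23, SE 0.037, adjusted p = 0.0206). Hippocalcin (Hpca, a neuronal calcium sensor) fell by 0.19 on the log2 scale, Tmem169 by 0.23 and the endothelial Arhgef15 by 0.24, each at an adjusted p of 0.0231. The diets did not overlap for any of these 4 genes, although for Tmem169 the nearest retinas were at 29.78 CPM in rd10 TMB and 29.81 CPM in rd10 vehicle.

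**Figure D4:**
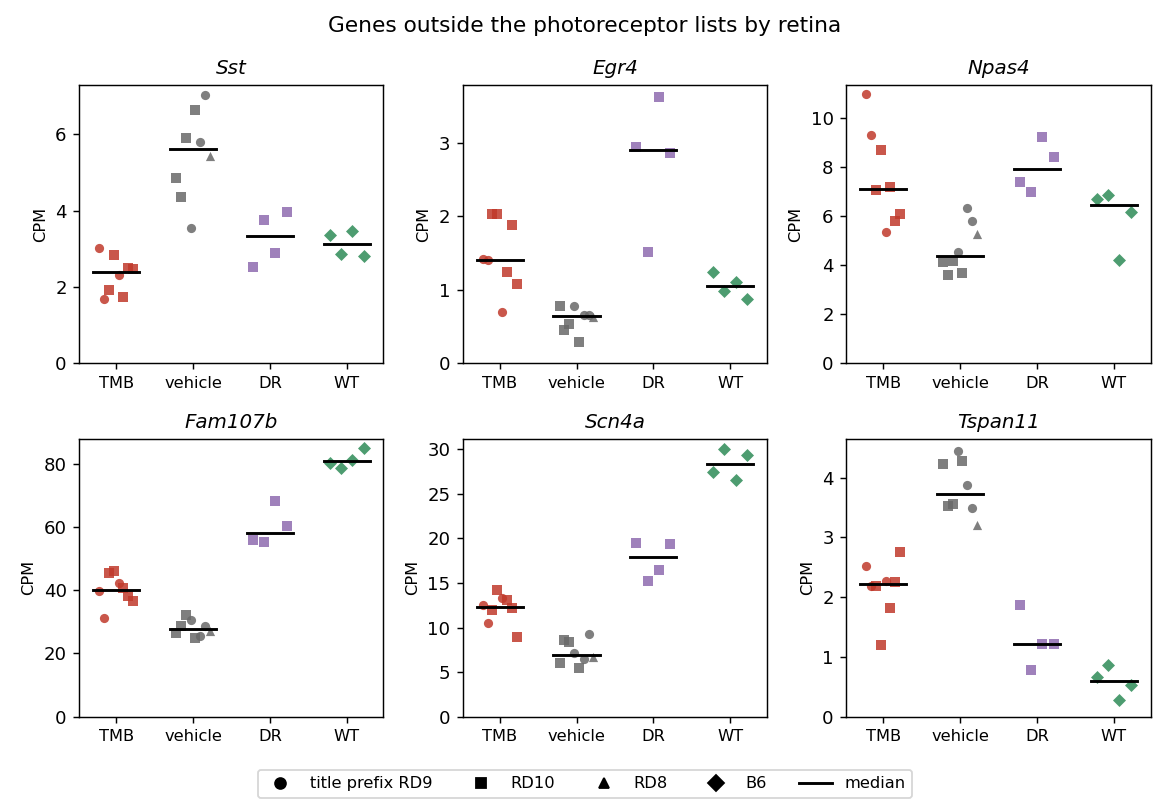
Level of 6 genes outside the photoreceptor lists in each retina (CPM, linear axis from 0) for rd10 TMB, rd10 vehicle, rd10 DR and WT, with symbols for the title prefix and bars at the group medians. Sst and Tspan11 separate the diets fully, with every rd10 TMB retina (1.68 to 3.02 CPM for Sst) below every rd10 vehicle retina (3.55 to 7.03 CPM).

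Stress and inflammation genes did not pass the test. None of 25 genes of reactive glia and injury cytokines, 26 microglia genes, 15 chemokines, 14 complement genes and 29 interferon and MHC class I genes was called, with medians of -0.18, -0.04, -0.21, -0.13 and -0.02. The reactive glia median had no firm sign. It was 0.14 without rd10 vehicle retina 4 (1 gene then passed as higher), 0.12 within RD10 and -0.61 within RD9 retinas, 0.07 without the RD9 females and 0.03 with DESeq2. The chemokine median was -0.03 without rd10 vehicle retina 4, 0.22 within RD10 and -0.85 within RD9 retinas. In the same order of lists, 3, 1, 6, 3 and 1 members had an unadjusted p under 0.05, beside 4398 of all 20251 genes. Of 11 MHC class II and T cell genes none passed (median -0.12, 8 negative and 3 positive), and 4 had an unadjusted p under 0.05. These were H2-Eb1 (-0.64), Cd74 (-0.54), H2-Aa (-0.51) and H2-Ab1 (-0.44), at adjusted p = 0.0808, 0.0978, 0.145 and 0.101. DESeq2 called 2 reactive glia genes and 1 chemokine higher, 2 chemokines and 1 microglia gene lower, and none of the complement and interferon genes. Gfap, the intermediate filament of reactive glia, had 163, 198 and 226 CPM in rd10 TMB retinas and 167, 244 and 580 CPM in rd10 vehicle retinas (log2 fold change -0.48, SE 0.18, adjusted p = 0.118). Without rd10 vehicle retina 4 it was -0.23 (adjusted p = 0.134), and it was -0.12 within RD10 and -0.88 within RD9 retinas. All 8 rd10 TMB retinas were below the rd10 vehicle median, yet only 1 was below the lowest rd10 vehicle retina. Gfap averaged 37.8 ± 5.66 CPM in WT retinas. The injury factors Edn2 and Fgf2 had log2 fold changes of 0.49 (adjusted p = 0.272) and 0.31 (adjusted p = 0.232). Lif was between 2.28 and 93.6 CPM in rd10 TMB retinas and between 3.04 and 210 CPM in rd10 vehicle retinas, with medians of 4.55 and 4.29 CPM.

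In metabolism, 2 of 23 glycolysis genes were higher and none lower. They were Pfkfb2, which sets the flux through phosphofructokinase (0.56, adjusted p = 0.0299), and the lactate carrier Slc16a1 (0.29, adjusted p = 0.0426). None of 52 nuclear oxidative phosphorylation genes passed (3 at an unadjusted p under 0.05, none by DESeq2), and their log2 fold changes lay between -0.06 and 0.15. Of 11 mitochondrially encoded genes none passed, with fold changes from -0.22 to 0.02. The ribosomal RNA mt-Rnr2, at 1120 ± 146 CPM in rd10 TMB and 1307 ± 111 CPM in rd10 vehicle retinas (SD, n = 8 each), had an adjusted p of 0.0663, and it passed with library size as the only scaling and without rd10 vehicle retina 7 or rd10 TMB retina 8. Among 26 antioxidant genes, the lipid peroxide reducing Gpx4 was higher (0.23, adjusted p = 0.0442) and the peroxiredoxin Prdx6 lower (-0.32, adjusted p = 0.0243). Single calls in a list of this size are near the shares over all genes (3.37% higher and 2.32% lower) and are no result about the list. The clock factor Npas2 (-0.33, adjusted p = 0.0444) and the matrix protein Tnc (-0.25, adjusted p = 0.0253) were the only calls among 20 circadian and 11 matrix genes.

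The diet difference was then fitted at equal rod level, with the mean level of the rod list in each retina as a covariate. Only 1 gene passed (0.00494% of those tested), and it was Sst (log2 fold change -1.37, SE 0.196, adjusted p = 0.0287). At an unadjusted p under 0.05, 883 genes passed. Diet and rod level go together in these retinas, so the standard error of the diet term was 1.4 times as large in the median gene as without the covariate. Of the 683 higher genes, 621 stayed above 0, and their median fell to 0.09, against 0.43 without the covariate. Of the 469 lower genes, 468 stayed below 0, with a median of -0.11, against -0.18. The called rod genes are among the 683, and they lie near 0 by construction, since the rod list makes up the covariate. Egr4 kept a log2 fold change of 1.38, Fabp4 0.86, Tspan11 -0.66, Npas4 0.51 and Fam107b 0.39, none of them past the threshold. Scn4a had 0.36, Tdrd7 0.29, Sap30 0.26, Sntb2 0.19 and Slc26a2 0.19, also without passing. The call for Sst was not firm either: it was lost with the prefix as a further covariate (adjusted p = 0.143) and in 11 of the 16 fits without 1 retina, most of all without rd10 vehicle retina 7 (adjusted p = 0.785). The fold change of Sst stayed between -1.47 and -1.23 in those 16 fits.

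**Figure D5:**
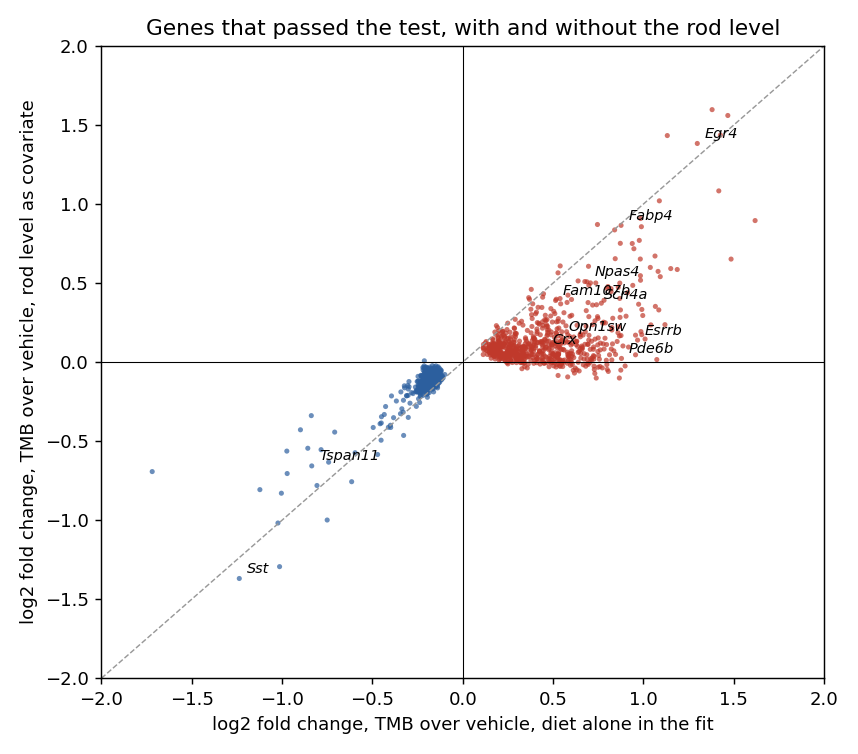
Log2 fold change (rd10 TMB over rd10 vehicle) of the 1152 genes that passed, with diet alone in the fit (horizontal axis) and with the rod level as covariate (vertical axis). The dashed line marks equal values. Most red points, the rod genes that make up the covariate included, lie nearer to 0 (median 0.09), while Sst (-1.37) and Egr4 (1.38) stay near the line.

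Within a diet, no relation of Sst or Gfap to the rod level was detected across the 8 retinas. For log2 CPM of Sst against the mean rod level, Pearson's r was 0.387 in rd10 TMB retinas (p = 0.337, two-sided exact permutation test) and 0.182 in rd10 vehicle retinas (p = 0.665, exact permutation test), with Spearman's coefficients of 0.381 (p = 0.36, exact permutation test) and 0.31 (p = 0.462, exact permutation test). Without the 2 retinas farthest from the median rod level, r was 0.121 in rd10 TMB and 0.381 in rd10 vehicle retinas. For Gfap, r was -0.139 in rd10 TMB retinas (p = 0.749, exact permutation test) and -0.0532 in rd10 vehicle retinas (p = 0.921, exact permutation test), and Spearman's coefficient was -0.0238 (p = 0.977, exact permutation test) and 0.167 (p = 0.703, exact permutation test). Without the 2 farthest retinas, r for Gfap was -0.233 and -0.188. Over these 4 relations the adjusted p of r was 0.921 in each, and that of Spearman's coefficient was 0.924 to 0.977. With 8 retinas per diet, weak and moderate relations could be missed, so their absence was not shown.

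The sexes were compared through the interaction of diet and sex. No gene passed (0% of 20251), the smallest adjusted p was 0.851, and 776 genes had an unadjusted p under 0.05. Within females alone no gene passed, and within males alone Fam107b and Sst did. Pde6b had a log2 fold change of 0.88 in females (SE 0.258) and 0.87 in males (SE 0.299), and Sst -0.98 in females (SE 0.219) and -1.47 in males (SE 0.14). The interaction had an adjusted p of 0.9995 for Sst, and no difference between the sexes was detectable for it.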

How the data were processed

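Polyadenylated RNA of whole retinas was sequenced with a kit that does not mark strand. Per the labels and the methods, the authors used Trimmomatic for trimming, STAR for alignment to GRCm38 and HTSeq for the counts per gene. The deposited values are raw counts for 31346 nuclear genes, with mitochondrial genes in separate tables. The authors' DESeq2 fold changes and adjusted p-values beside them were not used. The sources differ on single or paired reads. All columns were matched to samples.

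rd10 TMB and rd10 vehicle counts were compared with edgeR 4.0.16 in R 4.3.3 (default expression filter, TMM, quasi-likelihood F test, Benjamini-Hochberg adjustment over 20251 genes, threshold 0.05). A positive log2 fold change means higher in rd10 TMB, and SE is its standard error. CPM are scaled by TMM over all 24 libraries. Levels are given as lowest, median and highest retina. Mitochondrial genes averaging 100 counts or more were joined to the nuclear counts. DESeq2 1.42.0, other scalings, filters, covariates and subsets were alternatives. Positions are from GENCODE M21 on GRCm38, where 99.1% of names were found.

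Named genes were the 12 largest rises and 12 largest falls among calls with a mean of at least 1 CPM, the 8 smallest p in each direction (predicted genes and pseudogenes left out), up to 4 per gene list with the smallest p, 27 genes named whatever their values, and the 4 smallest p in each direction of the interaction and rod-level fits; fewer are described here. Nr2e3, Samd7, Xbp1, Manf, Calr, Ptgs2 and the genes called within RD10 retinas were added after their values were seen. The comparison and the 39 gene lists were chosen with earlier results of these data known. Some listed genes were not analysed here. Each library has its own title, with a sex and a number, and no 2 libraries of a diet were duplicates (chi-square per gene 11.4 to 83.5 over 56 pairs). Counts summed to 56799680 to 86471014 per library, more than the sequencing depth stated in the methods, for a reason that is not known. Counting error was therefore not read from these totals, and the tests rest on the spread between libraries.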

Additional observations from a re-analysis of the deposited data

Results flagged for a closer look

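In 13 of 170 groups of 8 retinas (85 genes, both diets), 1 retina stood apart by Dixon's test. Chance flags about 1 in 20 groups. Of the 13, 4 fell on rd10 vehicle retina 4, which was highest for Lif at 210 CPM (next 4.86), Fos at 323 CPM (next 79.5), Gfap at 580 CPM (next 276) and Tnc at 57.7 CPM (next 47.1). It is the RD9 female of its diet. The RD9 females on TMB, retinas 1 and 2, had like sums of the immediate early list (2240 and 2160 CPM, beside 2110 CPM). Lif and Fos reached 93.6 and 297 CPM in rd10 TMB retinas without a flag. The test looks at 1 extreme retina, so 2 high retinas in a group can hide each other. Among rd10 TMB retinas, number 4 was highest for Tcp11 at 22.5 CPM, number 8 for Tfap2a at 47.5 CPM and number 1 for Drd2 at 53.7 CPM, and number 3 was lowest for Pde8a at 39.6 CPM. Among rd10 vehicle retinas, number 7 was highest for Opn1sw at 555 CPM, number 2 for Htr3a at 11.6 CPM, number 1 for Esam at 29.9 CPM and number 6 for Rflnb at 10.7 CPM, and number 6 was lowest for Adrb1 at 16.7 CPM.

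A diet effect that differed between title prefixes was found for 3 of 20353 genes in an edgeR interaction test over the 15 RD9 and RD10 retinas, added after the data were seen (1371 at an unadjusted p under 0.05). All 3 act in the endoplasmic reticulum stress response or protein folding. The RD10 minus RD9 difference in log2 fold change was -0.86 for Xbp1 (adjusted p = 0.00253), -0.84 for Manf (adjusted p = 0.0494) and -0.64 for Calr (adjusted p = 0.0494). Xbp1 had a log2 fold change of -0.50 within RD10 and 0.36 within RD9 retinas, Manf -0.49 and 0.35, and Calr -0.26 and 0.38.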

How the results depend on the processing

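The counts of calls moved with the processing. Genes higher and lower were 1078 and 807 with DESeq2, 1027 and 586 with all 4 groups in 1 fit, 656 and 1041 with library size only, 507 and 173 without a filter, 542 and 297 with prefix as covariate, 234 and 138 without the RD8 retina, 7 and 5 within RD10, 0 and 0 within RD9, 0 and 0 in females, 1 and 1 in males, 2 and 1 with the RD9 females left out, and 1 and 2 without rd10 TMB retinas 2, 3 and 4. Leaving out 1 retina gave 1 to 962 higher and 1 to 741 lower.

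Same-numbered retinas correlated at 0.13, -0.08, 0.009, 0.27 and 0.26. For rd10 TMB retinas 5 and 8, the rd10 vehicle retina of the same title number was the closest of all. For rd10 TMB retinas 1, 3 and 4 another one was closer. Whether the numbers mark pairs is not known, and the main fit did not take them as pairs. The replicate block over 5 pairs gave 0 and 0 calls (2815 genes at an unadjusted p under 0.05), as did the same 10 retinas without the block (2076).

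The sex interaction gave 47 genes without the RD9 females, all more positive in females, and 0 to 1 without 1 retina. The 47 include Rpe65, Rgr and Ttr, which pigment epithelium makes. Over all retinas of a diet they reached at most 83.9, 193 and 477 CPM in rd10 TMB and 20.4, 46.8 and 173 CPM in rd10 vehicle retinas. Summed pigment epithelium and melanocyte genes had 1500 and 1070 CPM in the rd10 TMB females of that fit and 1340, 429 and 334 CPM in the rd10 vehicle females, against 276 to 362 CPM in rd10 TMB males and 189 to 542 CPM in rd10 vehicle males. The part of this RNA in the 47 was not tested. The rod-level fit gave 0 with prefix added, and 0 to 1 without 1 retina. Mitochondrial calls were 2 with library size only, 1 when scaled to their own total, and 0 to 2 without 1 retina. Lif turned positive with DESeq2 (1.22) and without rd10 vehicle retina 4 (2.33), with a lowest value of -1.51 without rd10 TMB retina 2, and Edn2 turned to -0.0084 in the 10 retinas without the block. The cause of these changes was not tested.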

Other observations

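Within RD10 retinas alone, 12 genes passed, and 3 of them (Sst, Npas4 and C2cd6) were also called over all 16 retinas. Activity-dependent genes were among the rises, with log2 fold changes of 0.75 for Junb, 0.63 for Sik1, 0.58 for Dusp1 and 0.46 for Nr4a1 (adjusted p = 0.0308, 0.0315, 0.0413 and 0.0315). Within RD9 retinas the same genes had -0.20, -0.18, -0.01 and 0.59, none past the threshold, and the prefix interaction had adjusted p = 0.842, 0.135, 0.443 and 0.986.

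Ptgs2, the inducible cyclooxygenase, was lower in every rd10 TMB retina than in any rd10 vehicle retina (log2 fold change -1.62, SE 0.477) and missed the threshold by a little (adjusted p = 0.0516). All other genes without overlap between the diets passed.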
